A study of Mus musculus with 10 samples.

Results

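The phagocyte NADPH oxidase was followed in microglia of an amyloid mouse model through 5 genes, Cybb, Cyba, Ncf1, Ncf4 and Rac2. The members were chosen by symbol, with earlier results of these data known, and are 5 of the 24421 symbols listed in the count files. The shares of all genes set beside the members are therefore a description. All 5 passed the filter on low counts, with 17 to 1794 reads per gene and library. RNA was sequenced from microglia that had been separated on a density gradient from the cortex of 9-month-old mice, with 3 libraries from WT mice, 4 from APP/PS1 mice and 3 from APP/PS1 mice given N-AS. APP/PS1 mice over-express mutant transgenes, hAPP695swe among them, and N-AS is N-acetyl sphingosine, injected daily under the skin at 30 mg per kg for 8 weeks from 7 months of age. Mice were pooled for each library. By the study's text the APP/PS1 mice that N-AS was compared with were given vehicle, and no treatment of the WT mice is given in the sources used here. The counts are of mouse genes, so App does not check the human transgene.

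The phagocyte NADPH oxidase moves electrons from NADPH across the membrane to oxygen and makes superoxide. Its catalytic core is a membrane flavocytochrome of gp91phox, encoded by Cybb, and p22phox, encoded by Cyba. In resting cells the subunits p47phox (Ncf1) and p40phox (Ncf4) are kept in the cytosol and move to the membrane on activation, together with a Rac GTPase, which in blood phagocytes is largely Rac2. In the brain the complex is known mainly from microglia.

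Some libraries went against the study's statement that male mice alone were used. Xist, the RNA of the inactive X chromosome, had 33 to 37 reads in WT and 5253 to 11188 in APP/PS1, and 7024, 8848 and 29 reads in the 3 APP/PS1+N-AS libraries. The 4 Y-linked genes Ddx3y, Uty, Kdm5d and Eif2s3y together had 1492 to 3700 reads in WT, 495, 690, 13 and 13 in APP/PS1, and 470, 863 and 2377 in APP/PS1+N-AS. APP/PS1 replicates 3 and 4 thus had Xist with almost no Y-linked reads, APP/PS1+N-AS replicate 3 had Y-linked reads with almost no Xist, and replicates 1 and 2 of both groups had both kinds of reads. The sex-linked reads and the groups moved together, and their part in the results was not tested. Values without some of these libraries are given below, but APP/PS1 and WT still differ in these reads there. Cybb is itself X-linked. Over the 653 X-linked genes tested, the median log2 fold change in APP/PS1 against WT was -0.03, beside -0.08 over autosomal genes. Any part of X-linkage in the level of Cybb was not tested.

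The microglial label was checked with 14 markers. Their summed level was 979 to 1465 CPM in WT, 3496 to 4838 CPM in APP/PS1 and 2089 to 2847 CPM in APP/PS1+N-AS, where CPM is the read count scaled to the library's total, with TMM factors. RNA of other brain cells was also present, with 1976 to 7152 CPM for 10 oligodendrocyte markers and 1355 to 4759 CPM for 8 neuron markers over all libraries. In bulk RNA, more microglia in a library and more RNA of a gene in each microglial cell cannot be told apart. Neutrophils are rich in this oxidase, and 9 of their markers summed to 149 CPM in APP/PS1 replicate 3 against 6.55 to 21.8 CPM in the other libraries, so results without that library are given beside the members.

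Promoter sequences from the RefSeq table of build GRCm38.p6 were matched for 3 of the 5 members, Cybb, Cyba and Ncf1. Cybb and Ncf1 are printed because their windows hold forms known to be read by factors of myeloid and interferon-driven genes. Cyba, whose window is not printed, was higher in APP/PS1 as well. Any part of these forms in the members' levels was not tested. Each window runs from 250 bases before to 50 bases after the start site, 5′ to 3′ on the minus strand, at chrX:9469275-9469574 for Cybb and chr5:134229576-134229875 for Ncf1. Capitals mark the PU box GAGGAA, a core read by PU.1 (Spi1), and the interferon response form GAAANNGAAA, on either strand.
Cybb: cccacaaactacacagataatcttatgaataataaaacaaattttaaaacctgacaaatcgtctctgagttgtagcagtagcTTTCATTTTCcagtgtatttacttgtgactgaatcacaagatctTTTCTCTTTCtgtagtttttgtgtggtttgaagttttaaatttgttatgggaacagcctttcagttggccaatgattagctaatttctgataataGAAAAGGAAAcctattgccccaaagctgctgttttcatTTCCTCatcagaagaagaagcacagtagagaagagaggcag
Ncf1: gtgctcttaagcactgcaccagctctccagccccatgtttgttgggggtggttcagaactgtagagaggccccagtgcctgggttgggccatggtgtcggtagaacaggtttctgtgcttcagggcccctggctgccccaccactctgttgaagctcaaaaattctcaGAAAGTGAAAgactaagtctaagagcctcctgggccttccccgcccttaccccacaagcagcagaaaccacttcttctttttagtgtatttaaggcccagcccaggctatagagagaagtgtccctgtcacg
Cybb held 1 PU box, 10 bases after the start site, and 3 interferon response forms, which began at positions -168, -124 and -29. Ncf1 held 1 interferon response form, at -82, and the Cyba window held neither form. Over the 32851 promoters of the table, 28.3% held the PU box and 3.44% the interferon response form. These are matches of letters and not sites of binding. The Cybb window lies inside the longer span that the GENCODE annotation gives the gene.

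To ask how the oxidase genes differ in the disease model, APP/PS1 was compared with WT. Cybb, Cyba, Ncf1 and Rac2 were higher in APP/PS1, and all 5 members lay above WT in each APP/PS1 library. In edgeR (quasi-likelihood F test, p adjusted by Benjamini-Hochberg over 18727 genes), 4 of the 5 members passed an adjusted p of 0.05, where 2.67% of all genes passed as higher. Groups that did not overlap were seen for 5 of 5 members and for 8.15% of all genes in this direction. The median log2 fold change of the members was 1.58, beside -0.07 over all genes tested.

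**Figure D1:**
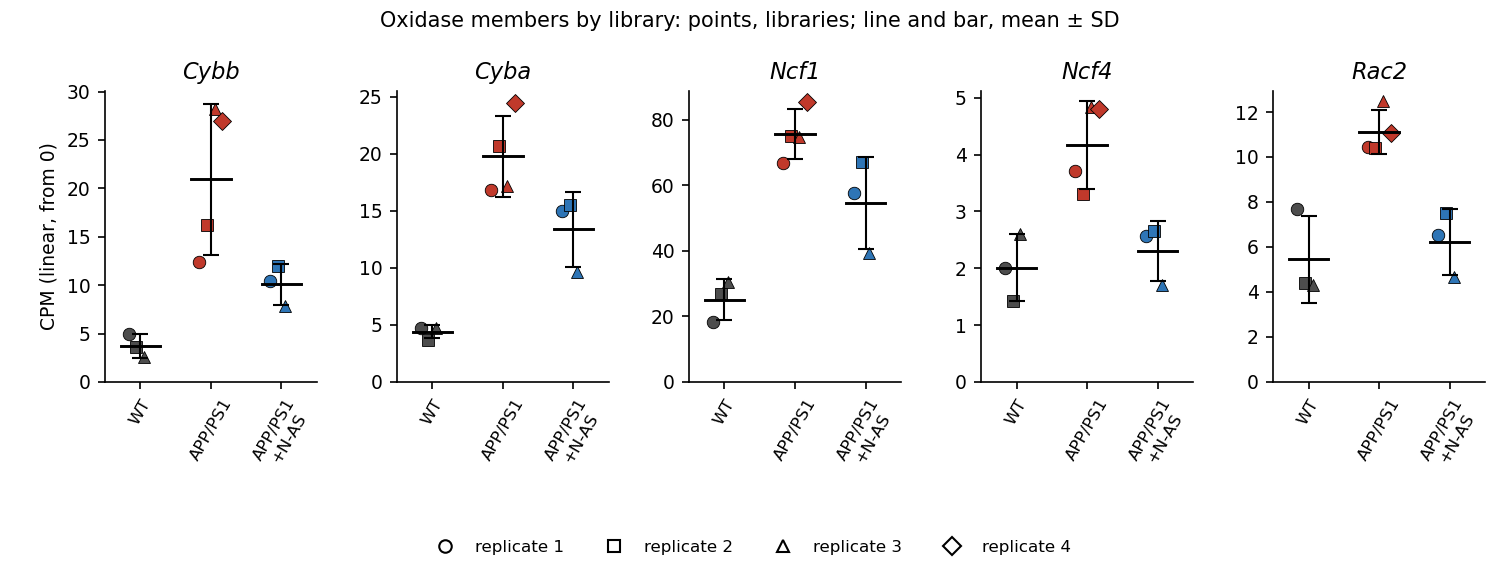
Level of each oxidase member in each library, in CPM on a linear axis from 0, for WT (grey, 3), APP/PS1 (red, 4) and APP/PS1+N-AS (blue, 3), with the line at the mean and the bar at 1 SD to each side. Every APP/PS1 point lies above every WT point, and the APP/PS1+N-AS points of Ncf4 and Rac2 overlap those of WT.

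Of the membrane core, Cybb (chromosome X: 9435252 to 9487771, minus strand, GRCm38) encodes the subunit that carries the electrons. Its level was 4.97, 3.65 and 2.55 CPM in WT and 12.4, 16.2, 28.2 and 26.9 CPM in APP/PS1 replicates 1 to 4. The APP/PS1 libraries did not overlap WT but fell into a lower and a higher pair. The higher pair was that with almost no Y-linked reads, and also that of library numbers 8 and 9. The log2 fold change was 2.53 ± 0.35 (SE), or 5.77-fold, with an edgeR adjusted p of 0.0032. Within library numbers 1 to 6, which hold replicates 1 and 2 of each group, the log2 difference was 1.70, and within numbers 7 to 10 it was 3.37, with a single WT library. Without APP/PS1 replicate 3 the log2 fold change was 2.36 (adjusted p = 0.0096).

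Cyba (chromosome 8: 122424776 to 122432930, minus strand) encodes the partner that stabilises gp91phox. It was measured at 4.74, 3.71 and 4.72 CPM in WT and at 16.8, 20.6, 17.2 and 24.4 CPM in APP/PS1. All 4 libraries were more than 3 times the highest WT library. The log2 fold change was 2.17 ± 0.22, or 4.52-fold, with the lowest adjusted p of the members, 0.00074. Within the sets of library numbers the log2 difference was 2.12 and 2.09, and without APP/PS1 replicate 3 the log2 fold change was 2.25 (adjusted p = 0.0022). The annotation places Gm20388 over Cyba on the other strand, and that gene has no line in the count files.

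Of the cytosolic subunits, Ncf1 (chromosome 5: 134220053 to 134229625, minus strand), the organiser that brings the others to the membrane, had 18.1, 26.8 and 30.4 CPM in WT and 66.7, 75.1, 74.7 and 85.3 CPM in APP/PS1. The APP/PS1 libraries lay close together, with a coefficient of variation of 10.1%. The log2 fold change was 1.58 ± 0.22, or 2.99-fold (adjusted p = 0.0033), and 1.59 without APP/PS1 replicate 3. Gtf2ird2 overlaps Ncf1 on the other strand, and its own log2 fold change was 0.48 (adjusted p = 0.17). The library kit keeps the strand, but the strand setting of the counting is not given in the sources used here, so reads of the overlapping genes may be shared.

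Ncf4 (chromosome 15: 78244801 to 78262580, plus strand), whose product binds a membrane phosphoinositide and sustains activity, was the scarcest member. It had 2.01, 1.42 and 2.60 CPM in WT and 3.71, 3.30, 4.84 and 4.80 CPM in APP/PS1, from as few as 17 reads in a library. Its groups did not overlap, yet its log2 fold change of 1.04 ± 0.30 did not pass, with an adjusted p of 0.091. DESeq2 gave Ncf4 an adjusted p of 0.026. Without APP/PS1 replicate 3 its log2 fold change was 0.98 (edgeR adjusted p = 0.21).

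Rac2 (chromosome 15: 78559167 to 78572783, minus strand), the GTPase of blood cells, had 7.70, 4.39 and 4.29 CPM in WT and 10.4, 10.4, 12.5 and 11.1 CPM in APP/PS1. WT replicate 1 stood nearest to the APP/PS1 libraries. That library had the lowest total count of all, 8805804, and yet the fewest genes at 0 reads, 566. The part of this in its low-count genes was not tested. The log2 fold change was 1.05 ± 0.24, with an adjusted p of 0.041. This call depended on single libraries. It was lost without WT replicate 2 or 3 and without any of the 4 APP/PS1 libraries, and over the 7 fits that each left out 1 library the adjusted p was 0.015 to 0.12. With the replicate number as a block it was 0.096, and with only the 2 groups compared 0.062. Without APP/PS1 replicate 3 the log2 fold change was 1.00 (adjusted p = 0.11). Its paralog Rac1, which all cells use, differed by 0.27 ± 0.13 (adjusted p = 0.33), and Rac3, known from neurons, by -0.19 ± 0.28 (adjusted p = 0.78). Nox4, a paralog of Cybb outside phagocytes, had 0.345 to 3.43 CPM in WT and APP/PS1 libraries, with the highest value in WT replicate 1. Its log2 fold change was -0.74 ± 0.83 (edgeR adjusted p = 0.71).

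The members were also compared without the APP/PS1 and APP/PS1+N-AS libraries that lacked either kind of sex-linked reads. The WT libraries were kept, with 33 to 37 Xist reads, beside 5253 and 5831 in the APP/PS1 libraries that stayed. The sex-linked reads and these 2 groups therefore still moved together, and this choice cannot separate them. With WT and only the libraries that had both Xist and Y-linked reads, a choice made after these reads were seen, Cybb, Cyba and Ncf1 kept an adjusted p under the threshold, with log2 fold changes of 1.98, 2.11 and 1.499. Rac2 was then at 0.97 (adjusted p = 0.22) and Ncf4 at 0.81 (adjusted p = 0.42). With the summed Y-linked level as a covariate, 0 members passed the adjusted p in edgeR and 3 had an unadjusted p under 0.05. That level and the groups moved together.

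**Figure D2:**
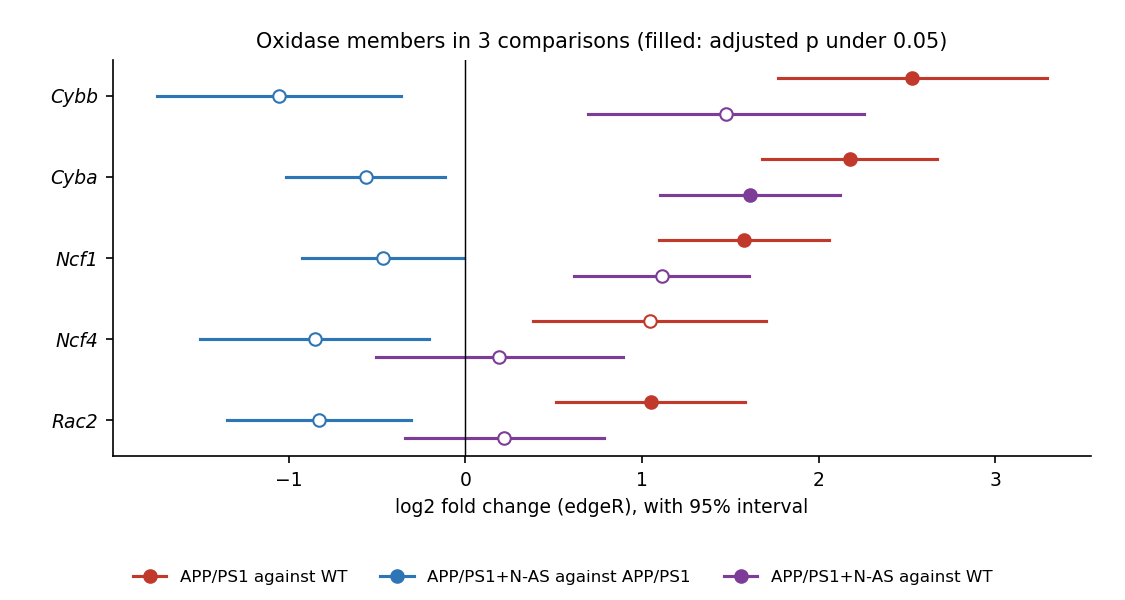
Log2 fold change of each member by edgeR with its 95% interval, for APP/PS1 against WT (red), APP/PS1+N-AS against APP/PS1 (blue) and APP/PS1+N-AS against WT (purple), with filled points where the adjusted p was under 0.05. The red points lie between 1.04 and 2.53 and the blue between -1.05 and -0.47, and no blue point is filled.

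The order of the members was read per length. Per length of merged exons, the mean level in WT was 6.85 RPKM (CPM per kilobase of exon) for Ncf1, 4.22 for Cyba, 1.76 for Rac2, 0.996 for Ncf4 and 0.641 for Cybb. In APP/PS1 it was 20.6 RPKM for Ncf1, 19.03 for Cyba, 3.60 for Cybb, 3.58 for Rac2 and 2.06 for Ncf4. After N-AS it was 14.9 RPKM for Ncf1, 12.9 for Cyba, 2.01 for Rac2, 1.74 for Cybb and 1.14 for Ncf4. In APP/PS1 the ranges of Ncf1 and Cyba overlapped, as did those of Cybb and Rac2. In WT the ranges of Ncf4 and Cybb overlapped, and Ncf1 lay above Cyba in every library. The per-length ratio of Cyba to Rac2 was 1.84, 2.52 and 3.29 in WT and 4.81, 5.93, 4.11 and 6.59 in APP/PS1. The ratio of Cybb to Ncf4 was 0.859, 0.892 and 0.341 in WT and 1.16, 1.70, 2.02 and 1.95 in APP/PS1. Of the 10 ratios between members, 4 did not overlap between these groups, those of Cybb and of Cyba to Ncf4 and to Rac2, and the other 6 overlapped. These 4 reuse the same genes, so they are not separate observations, and the share among ratios of other genes was not computed. Between APP/PS1+N-AS and WT 6 of 10 did not overlap. Between APP/PS1+N-AS and APP/PS1 1 did not, that of Ncf1 to Rac2. No test was made of the ratios. The ratio of Ncf4 to Rac2 was 0.402 to 0.932 in WT and 0.488 to 0.666 in APP/PS1, which overlapped.

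The members were next set beside the microglial markers, whose mean log2 level differed by 1.67 between APP/PS1 and WT. The log2 level of a member minus that mean was compared by a two-sided exact permutation test over libraries, in 15 tests with Benjamini-Hochberg adjustment. Relative to the markers, APP/PS1 differed from WT by 0.75 for Cybb, 0.46 for Cyba, -0.06 for Ncf1, -0.65 for Ncf4 and -0.61 for Rac2. Only Ncf4 did not overlap, and all 4 APP/PS1 libraries were lower. The share of all genes without overlap on this scale was not computed. For Ncf4 the exact test was as follows. Its exact p was 0.057, the smallest that 4 against 3 libraries can give, and the adjusted p was 0.24, so this design could not pass the threshold. For Cybb the exact p was 0.23 (adjusted p = 0.38), and within library numbers 1 to 6 its relative difference was -0.01. With the marker mean as a covariate in edgeR, 0 members passed the adjusted p and 0 had an unadjusted p under 0.05, and Ncf1 and Ncf4 turned to log2 fold changes of -0.27 and -0.93. Since 93.2% of the variance of that mean lay between the groups, the group and the marker level cannot be told apart in this fit.

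**Figure D3:**
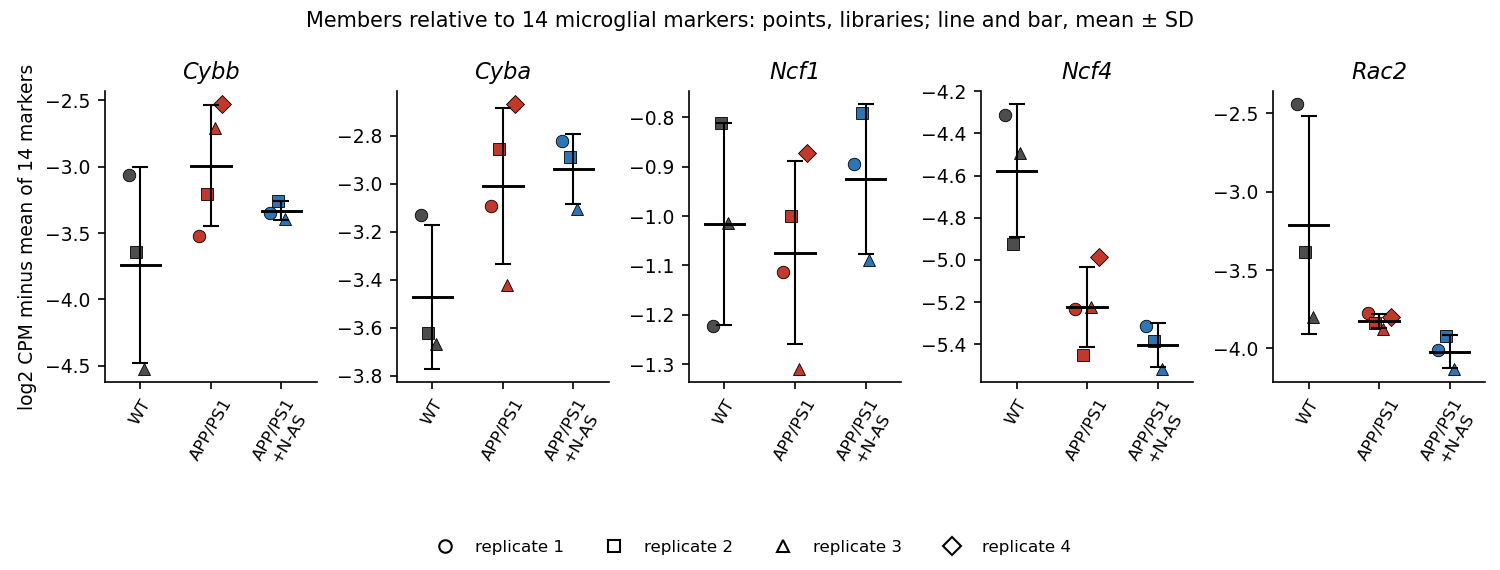
Log2 CPM of each member minus the mean log2 CPM of 14 microglial markers in each library, by group, with the line at the mean and the bar at 1 SD to each side. Ncf4 lies lower in all 4 APP/PS1 libraries than in WT, while Cybb, Cyba, Ncf1 and Rac2 overlap between these groups. The size of the differences depends on the marker list.

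To ask whether N-AS changed the members, APP/PS1+N-AS was compared with APP/PS1. The mean of every member was lower after N-AS, but no call passed the adjustment. By edgeR 0 of 18727 genes passed an adjusted p of 0.05, which is 0% of all genes, and 1653 had an unadjusted p under 0.05. DESeq2 called 79 genes, and no member was among them. All 5 members had an unadjusted edgeR p under 0.05 and a lower level, beside 4.05% of all genes, and 4 of 5 did not overlap, beside 6.46% of all genes. Their median log2 fold change was -0.83, beside -0.01 over all genes.

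Cybb was at 10.4, 12.03 and 7.82 CPM after N-AS, below each of the 4 APP/PS1 libraries, with a log2 fold change of -1.05 ± 0.31 (adjusted p = 0.49). Cyba was at 15.0, 15.5 and 9.60 CPM, also below all 4 of them, at -0.56 ± 0.20 (adjusted p = 0.51). Ncf1 was at 57.5, 66.9 and 39.2 CPM, and its highest treated library overlapped the lowest APP/PS1 library, at -0.47 ± 0.21 (adjusted p = 0.56). In each of these genes APP/PS1+N-AS replicate 3 was the lowest of the treated libraries.

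Ncf4 was at 2.57, 2.65 and 1.70 CPM, with a log2 fold change of -0.85 ± 0.29 (adjusted p = 0.51). Rac2 was at 6.52, 7.52 and 4.65 CPM, at -0.83 ± 0.24 (adjusted p = 0.49). Both lay below every APP/PS1 library and overlapped WT.

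The labels number the replicates and state no pairing between these groups. With the replicate number as a block, the count of members with an unadjusted edgeR p under 0.05 fell from 5 to 2, Cybb and Rac2. It was also 2 without APP/PS1+N-AS replicate 3, and 3 without APP/PS1 replicate 4. With only the libraries that had both Xist and Y-linked reads it was 0, and the log2 fold changes were then -0.35 for Cybb, -0.29 for Cyba, -0.18 for Ncf1, -0.42 for Ncf4 and -0.56 for Rac2. Replicate 3 of the treated group and replicates 3 and 4 of APP/PS1, which that choice leaves out, differ in their sex-linked reads. Between same-numbered libraries 1, 2 and 3 the Cybb log2 difference was -0.25, -0.42 and -1.83. Within library numbers 1 to 6 the log2 difference was -0.34 for Cybb and -0.19 for Ncf1. Within numbers 7 to 10, with a single treated library, it was -1.80 and -1.02. All 5 members differed more within numbers 7 to 10.

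Gfap, the astrocyte marker, was also lower after N-AS, at a log2 fold change of -1.67 (edgeR adjusted p = 0.49), and DESeq2 called it. Its part in the members' levels was not tested. The microglial markers were lower by a mean log2 level of 0.65 after N-AS, and 10 of 14 had an unadjusted edgeR p under 0.05, all lower, of which DESeq2 called 3 (Itgam, Trem2 and Tyrobp). Relative to that mean, the members differed by -0.34 for Cybb, 0.07 for Cyba, 0.15 for Ncf1, -0.18 for Ncf4 and -0.20 for Rac2. Only Rac2 did not overlap, with an exact permutation p of 0.057, the smallest possible, and an adjusted p of 0.24. On this relative scale the share of all genes without overlap was not computed.

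APP/PS1+N-AS was last compared with WT, which shares its libraries with the comparisons above. Cyba was the only member called, at a log2 fold change of 1.61 ± 0.23 (edgeR adjusted p = 0.024), where 0.176% of all genes passed as higher. Cybb was at 1.48 ± 0.35 (adjusted p = 0.23) and Ncf1 at 1.11 ± 0.23 (adjusted p = 0.12). Those 3 members did not overlap with WT, beside 4.9% of all genes in this direction. Ncf4 at 0.19 ± 0.32 and Rac2 at 0.22 ± 0.26 overlapped WT, with 95% intervals of -0.51 to 0.89 and -0.34 to 0.78. Relative to the microglial marker mean, APP/PS1+N-AS differed from WT by 0.41 for Cybb, 0.53 for Cyba and 0.09 for Ncf1. On that scale Ncf4 differed by -0.83 and Rac2 by -0.81. Cyba lay higher and Ncf4 and Rac2 lower without overlap, while Cybb and Ncf1 overlapped. The share of all genes without overlap on this scale was not computed, so this is a description. The values on this scale depend on the marker list. For Cyba, Ncf4 and Rac2 the exact permutation p was 0.1, the smallest these groups can give, with an adjusted p of 0.24. These groups are too small for a pass. Cyba's call was lost without WT replicate 1 or 2 and without APP/PS1+N-AS replicate 1 or 2, and its adjusted p over 6 such fits was 0.0027 to 0.15. Without APP/PS1 replicate 2, which enters this comparison only through the shared spread, it was 0.059, and with only the 2 groups compared 0.23. With the replicate number as a block it was 0.084. Without APP/PS1+N-AS replicate 3, Ncf1 was called too (adjusted p = 0.025), and DESeq2 called Cybb, Cyba and Ncf1.

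Partners of the oxidase were read from lists of genes. Of 10 oxidase partners 9 were in the files and tested, and 4 of them were higher in APP/PS1 than in WT by adjusted p. Of all genes 2.67% passed as higher, and of the microglial markers 11 of 14. Hvcn1, the proton channel that balances the charge moved by the oxidase, rose by 1.501 on the log2 scale (edgeR adjusted p = 0.00076). Ptpn6, the phosphatase SHP-1, rose by 1.97 (adjusted p = 0.0033), and Arhgdib, which holds Rac proteins in the cytosol of blood cells, by 1.03 (adjusted p = 0.017). The median of the list was 0.39.

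Of 22 genes listed as Rac activators and kinases, with some other regulators among them, 7 were higher and none lower in APP/PS1 by adjusted p. Of all genes 2.67% passed as higher, and the list median was 0.52. Among these, Vav1 (log2 fold change 1.34) and Dock2 (1.57) are exchange factors for Rac, Pik3cg (1.21) makes phosphoinositide signals, and Btk (1.26) is a kinase of blood cells. Plcg2, a phospholipase of microglial receptor signalling, rose by 0.94. The other 2 were Plcb2, also a phospholipase, and Arhgap25, a GTPase-activating protein that turns Rac off, so the 7 are not all activators of Rac. Of 7 tested factors known at phagocyte oxidase promoters, 2 passed as higher, beside that 2.67% of all genes. Spi1 (PU.1) rose from 5.20 ± 1.26 to 14.7 ± 2.33 CPM and Irf8 from 13.9 ± 1.18 to 43.9 ± 11.0 CPM, with edgeR adjusted p of 0.0043 and 0.013.

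Other lists covered the oxidase's substrate and its products. Of 8 NADPH supply genes and of 5 tested other NADPH oxidases, 0 passed the adjusted p by edgeR, with 2 and 0 at an unadjusted p under 0.05, and DESeq2 called 1 (Pgd, of the pentose phosphate pathway) and 0. Of 24 antioxidant enzymes 1 passed as higher, beside 2.67% of all genes. It was the peroxiredoxin Prdx4, at 0.74 (edgeR adjusted p = 0.047), and the list median was 0.09. DESeq2 called 3 of these enzymes, Prdx4, Hmox1 and Nfe2l2. After N-AS 0 genes of these lists passed the adjustment in edgeR or in DESeq2, and an unadjusted edgeR p under 0.05 was seen for 3 partners, 7 Rac activators and kinases, 3 antioxidant enzymes and 1 promoter factor, where 1653 of all 18727 genes had one. Among those with the lowest unadjusted p were Hvcn1 at -0.47 and Ptpn6 at -0.80 among the partners, and Vav1 at -0.53, Plcg2 at -0.53 and Pik3cg at -0.46 among the Rac activators and kinases. Spi1 was at -0.62, and Prdx4 at -0.46, Gpx1 at -0.47 and Slc7a11 at 0.49, all missing the adjustment. Hvcn1 was higher in APP/PS1+N-AS than in WT by 1.03 (adjusted p = 0.040).

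**Figure D4:**
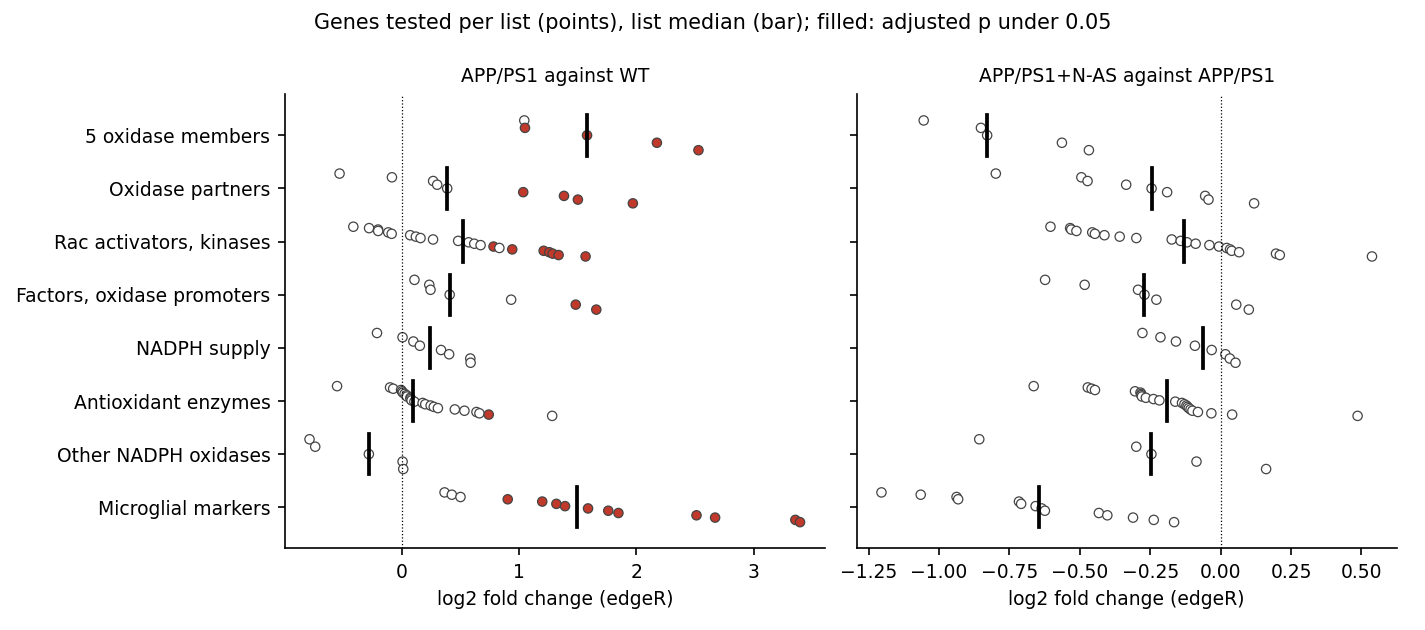
Log2 fold change by edgeR of each gene tested in 8 lists (points), with the list median as a bar, for APP/PS1 against WT (left) and APP/PS1+N-AS against APP/PS1 (right), and filled points where the adjusted p was under 0.05. On the left the medians of the oxidase members and the microglial markers are 1.58 and 1.49, and on the right no point is filled.

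Markers of other cells moved with the groups in part. The fold changes of the 10 oligodendrocyte markers were all negative in APP/PS1 against WT, 3 with an edgeR adjusted p under 0.05 and 7 called by DESeq2. Of all 18727 genes, 149 passed as lower in edgeR. Their sum was 6997, 7152 and 2470 CPM in WT and 4775, 4232, 1976 and 2027 CPM in APP/PS1, so WT replicate 3 lay below 2 APP/PS1 libraries. All 7 neutrophil markers tested had positive fold changes in APP/PS1 against WT and 0 passed in edgeR or DESeq2, with 0 at an unadjusted p under 0.05. The sum over all 9 in APP/PS1 was carried by replicate 3, and the other 3 libraries had 6.66 to 9.40 CPM beside 6.55 to 17.0 CPM in WT. Of 6 monocyte, 7 border macrophage, 4 tested lymphocyte, 8 neuron and 7 endothelial markers, 0 passed in this comparison in edgeR or DESeq2. Of these, 1 monocyte marker had an unadjusted edgeR p under 0.05. Of 8 astrocyte markers 1 passed as higher, Gfap, beside 2.67% of all genes. The part of these other cells in the members' levels was not tested.

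The pattern of the members over the 10 libraries was shared by other genes. The non-member genes with the highest Pearson r to the mean of the 5 standardized members were Rnaset2b (0.992), Lyz1 (0.991), Rnaset2a (0.989), Npc2 (0.988), Ly86 (0.988), Cd180 (0.988), Arhgap30 (0.986), Plxdc2 (0.985), Sgpl1 (0.984) and Ly9 (0.982). Rnaset2a and Rnaset2b are near-identical copies that can share reads. Of 18727 genes, 388 had an r over 0.9, and the points share their libraries and the difference between groups, so these values are a description.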

How the data were processed

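Per the labels and the study's methods, the authors removed ribosomal RNA, made libraries with a stranded kit, aligned reads with TopHat to mm10 (submitters' processing notes) and deposited raw read counts per gene and library. The annotation, versions and strand setting are not given in the sources used here. Total counts were 8805804 to 19432075 per library. Groups and replicate numbers came from the titles. The files list 24421 symbols (lines with the same symbol were summed).

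Genes passing filterByExpr were tested in 1 fit of 3 groups with edgeR 4.0.16 in R 4.3.3 (TMM, glmQLFit, glmQLFTest, Benjamini-Hochberg, 0.05). SE is the absolute log2 fold change over the root of F. Log2 CPM used a prior count of 2. Permutation tests used SciPy 1.17.1. Alternatives used DESeq2 1.42.0 and limma 3.58.1. Scripts were tested on simulated data. Positions, exon lengths and overlaps came from GENCODE M21 (GRCm38).

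The members and lists were chosen with earlier results of these data known. Named genes were the members, genes of each list past the threshold (at most 5 per list and comparison by p, or 3 by unadjusted p where none passed), paralogs, overlapping neighbours and the 10 genes most alike. Plcb2 and Arhgap25 were named to complete a count. P-values measure the spread between libraries of pooled mice. Same-numbered libraries of APP/PS1+N-AS and APP/PS1 correlated at r = 0.142 to 0.309 after group means were removed. Some with different numbers did so as well, at 0.173 for APP/PS1+N-AS 2 with APP/PS1 1 and 0.320 for APP/PS1+N-AS 3 with APP/PS1 4. The number was therefore used as a block only in an alternative fit and does not show a pairing. Counts carry no molecular identifiers. Some genes that the naming rule covers are counted in their lists and not reported here.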

Additional observations from a re-analysis of the deposited data

Results flagged for a closer look

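The summed level of 9 neutrophil markers in APP/PS1 replicate 3 was 149 CPM against 6.66 to 9.40 CPM in the other 3 APP/PS1 libraries, a gap of 0.981 of the group's range. The summed level of 6 monocyte markers in APP/PS1 replicate 1 was 776 CPM against 844 to 856 CPM in the other 3, a gap of 0.846 of the range, and most of that sum was Fn1, which cells other than monocytes also express. Chance flags about 1 in 20 groups.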

How the results depend on the processing

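Calls of members in APP/PS1 against WT numbered 4, and 5 by DESeq2, 3 with the replicate block, 3 with only the 2 groups compared, 3 with only the libraries holding both Xist and Y-linked reads beside WT, and 3 to 4 when 1 library was left out. With the marker mean or the Y-linked level as a covariate they were 0 and 0. In APP/PS1+N-AS against WT the count was 1, and 3 by DESeq2, 0 with limma voom and quantile normalization, 0 with the replicate block, 0 with either covariate, 0 with only the 2 groups compared, 3 by unadjusted p, and 0 to 2 when 1 library was left out. In APP/PS1+N-AS against APP/PS1 it was 0, and 5 by unadjusted p.

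Over all genes, APP/PS1 against WT gave 649 calls, and 1362 by DESeq2, 326 with the replicate block, 1055 with the library-number set as a term, 0 and 2 with the marker and Y-linked covariates, 410 with only the 2 groups compared, 3221 by unadjusted p, 195 with only the libraries holding both Xist and Y-linked reads beside WT, and 299 to 923 when 1 library was left out. APP/PS1+N-AS against APP/PS1 gave 0 calls, 79 by DESeq2, 1653 by unadjusted p, and 0 to 1 when 1 library was left out. APP/PS1+N-AS against WT gave 35 calls, 187 by DESeq2, 20 with voom and quantile normalization, 5 with the replicate block, 64 with the library-number set, 0 and 1 with the covariates, 2 with only the 2 groups compared, 1261 by unadjusted p, 98 with the libraries holding both kinds of reads, and 1 to 116 when 1 library was left out.

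Directions turned in few fits, and the cause was not tested. With the marker covariate Ncf1 was at -0.27 and Ncf4 at -0.93 in APP/PS1 against WT, Ncf1 at 0.23 in APP/PS1+N-AS against APP/PS1, and Ncf1 at -0.047 and Ncf4 at -1.02 in APP/PS1+N-AS against WT. With the Y-linked covariate Ncf4 was at -0.41 and Rac2 at -0.24 in APP/PS1+N-AS against WT, and without WT replicate 2 Ncf4 was at -0.0077, in a range of -0.0077 to 0.46. Relative to 6 markers in place of 14, Ncf1 was at 0.48 in APP/PS1 against WT, and Cyba at -0.11 and Ncf1 at -0.031 in APP/PS1+N-AS against APP/PS1. The other members, Ncf4 and Rac2 among them, moved by the same amount as Ncf1 in each comparison. Also relative to the 14 markers, within library numbers 1 to 6 Cybb was at -0.013 in APP/PS1 against WT and 0.064 in APP/PS1+N-AS against APP/PS1. Within numbers 7 to 10, on the same relative scale, Cyba was at -0.059 in APP/PS1+N-AS against APP/PS1 and Ncf1 at -0.076 in APP/PS1+N-AS against WT. Leaving out 1 library gave relative values of -0.16 to 0.044 for Ncf1 in APP/PS1 against WT, -0.067 to 0.18 for Cyba in APP/PS1+N-AS against APP/PS1 and -0.012 to 0.19 for Ncf1 in APP/PS1+N-AS against WT. The replicate block changed no call of a member in APP/PS1+N-AS against APP/PS1. In the other comparisons same-numbered libraries correlated at -0.49 to 0.44 and -0.14 to 0.35, and the number is not taken as a pairing in any comparison. Ncf4 was read from as few as 17 reads in a library, which limits its precision.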
